A study of Saccharomyces cerevisiae with 2 samples.

Results

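Calcineurin signalling and calcium transport in budding yeast, Saccharomyces cerevisiae, are described here through 10 genes of the 6868 features on the array, at both times after a shift to high salt. The genes were taken by systematic name, by a rule that uses no measured value, although earlier results of these data were known when they were chosen. They are the calcineurin subunit genes CNA1 (YLR433C), CMP2 (YML057W) and CNB1 (YKL190W), the transcription factor gene CRZ1 (YNL027W), the calcineurin regulator genes RCN1 (YKL159C) and RCN2 (YOR220W), the calcium pump genes PMC1 (YGL006W) and PMR1 (YGL167C), the exchanger gene VCX1 (YDL128W) and the channel gene CCH1 (YGR217W). All 10 had a value on both arrays.

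Strain BY4742, a haploid laboratory yeast of mating type alpha whose genotype the labels write as WT his3kan, was cultured at 30 °C with shaking in synthetic complete medium. Each of the 2 NimbleGen tiling arrays held cDNA of cells in 0.7 M NaCl in channel 1 (dye Oyster 550) and cDNA of unstressed cells of the same strain in channel 2 (Oyster 650). Salt had been present for 30 min on one array and for 60 min on the other, and the titles name the unstressed cells as time zero, so salt and time in culture cannot be told apart. There was 1 array per time and no dye swap, so no value has a replicate error, no test was possible, and dye and salt cannot be told apart. The labels name the unstressed channel differently on the 2 arrays, and it is not stated whether the unstressed RNA was the same on both. Mating type could not be checked, since a ratio gives no level.

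Calcineurin is a protein phosphatase that calcium switches on through calmodulin. It consists of a catalytic subunit, encoded in yeast by either of the paralogs CNA1 and CMP2, and the regulatory subunit encoded by CNB1. When cytosolic calcium rises, calcineurin dephosphorylates Crz1, which then enters the nucleus and drives genes of ion pumps and the cell wall. Yeast needs calcineurin to grow in high sodium, in large part because it raises transcription of the sodium pump gene ENA1. Calcium enters through the plasma membrane channel built around Cch1 and Mid1 and is removed into the vacuole by Pmc1 and Vcx1 and into the Golgi by Pmr1. Calcineurin and Crz1 are controlled at the protein level, so a transcript ratio is no measure of their activity.

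The values are log ratios of both channels as deposited, read as log2, with a median of 0 over all features of each array. Their sign was taken as likely salt over unstressed, which the labels do not settle. All 9 of a set of textbook osmostress genes (STL1, GRE1, SIP18, ALD3, CTT1, GPD1, GPP2, HSP12 and DDR2) had positive values at both times, and all 137 cytosolic ribosomal protein genes had negative ones. ENA1 was kept out of that set because calcineurin controls it. If the ratio runs the other way, every "higher" and "lower" below swaps. A ratio compares a gene with itself between conditions and says nothing about which of several genes is the more abundant. In RNA of a whole culture, more transcript per cell and a larger share of cells with the transcript cannot be told apart.

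The 30 min comparison asks which of these genes differed between salt-stressed and unstressed cells early in the response. RCN2 and PMC1 were at least 2-fold higher (a log2 ratio of at least 1) at 30 min, none of the 10 genes was 2-fold lower, and 8 were neither. Among all features 15.8% passed 2-fold upwards and 17.3% downwards, so 2 of 10 is near the general share. Positive values were seen in 9 of the 10 genes, against 49.5% of all features, with a median of 0.34 and an interquartile range over the genes of 0.096 to 0.93. In 6 of the 10 genes the value lay between the quartiles of the features with a nonzero value (-0.65 to 0.64), and in the other 4 it lay above the upper quartile.

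**Figure D1:**
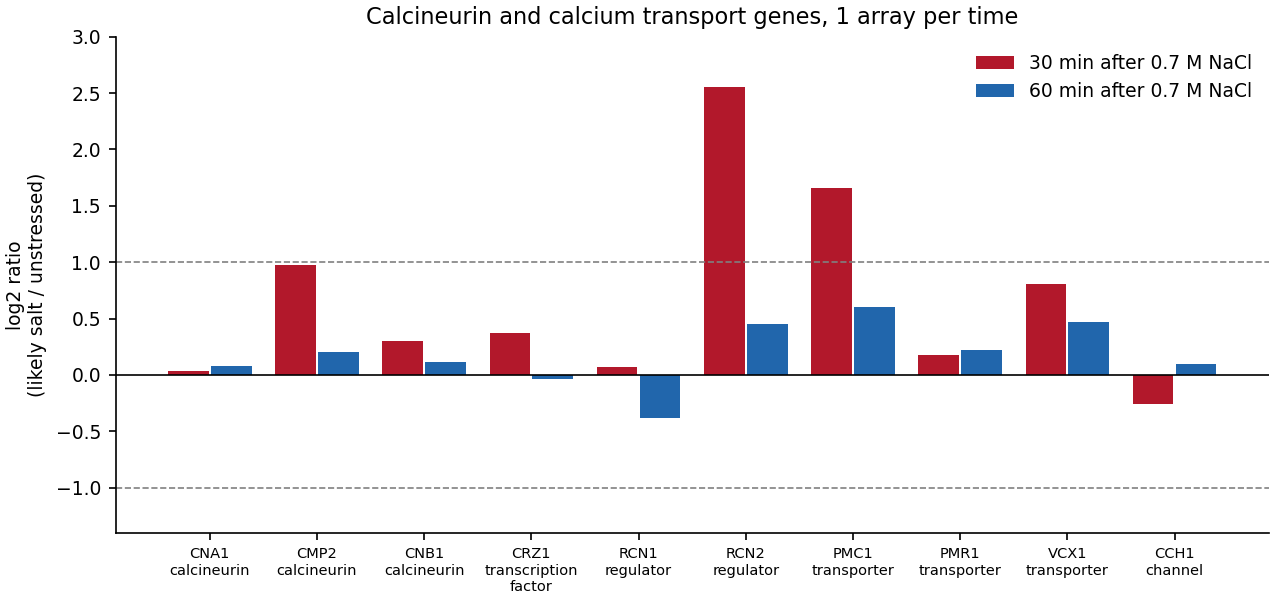
Log2 ratios (vertical axis, likely salt over unstressed) of the 10 genes at 30 min (red) and 60 min (blue) after 0.7 M NaCl. With 1 array per time there are no error bars, and dashed lines mark 2-fold. RCN2 (2.55) and PMC1 (1.66) stand above the upper line at 30 min, and no bar passes either line at 60 min.

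The 60 min comparison asks what had become of these values later in adaptation. None of the 10 genes was 2-fold higher or lower at 60 min, when 6.67% of all features were 2-fold higher and 4.32% 2-fold lower. Values were positive in 8 of the 10 genes, against 49.4% of all features, and their median was 0.16. PMC1, VCX1 and RCN2 lay above the quartiles of the nonzero features (-0.32 to 0.31), RCN1 lay below them, and the other 6 lay between them. CNA1, CNB1, CRZ1, PMR1 and CCH1 were between the quartiles at both times, 5 of the 10 genes. The share of all features between them at both times was not counted.

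Taking the 60 min value minus the 30 min value, RCN2 and PMC1 were the 2 genes at least 2-fold lower at 60 min, and none was 2-fold higher. Of all features, 8.85% were 2-fold lower and 11.6% 2-fold higher by the same difference. In 7 of the 10 genes the value lay closer to 0 at 60 min, as it did in 77.3% of all features. The 60 min array had the narrower spread, with a standard deviation over features of 0.71 against 1.33. On that array 458 features were 2-fold higher and 297 lower, but 1078 and 1093 once it was rescaled to the spread of the other. On the rescaled array PMC1 was 2-fold higher at 60 min (1.13) and no longer 2-fold apart between the times (-0.53), while RCN2 still was (-1.70). Places in the ranking of each array, where 1 is the highest value, do not depend on that scale and are given below beside the ratios.

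**Figure D2:**
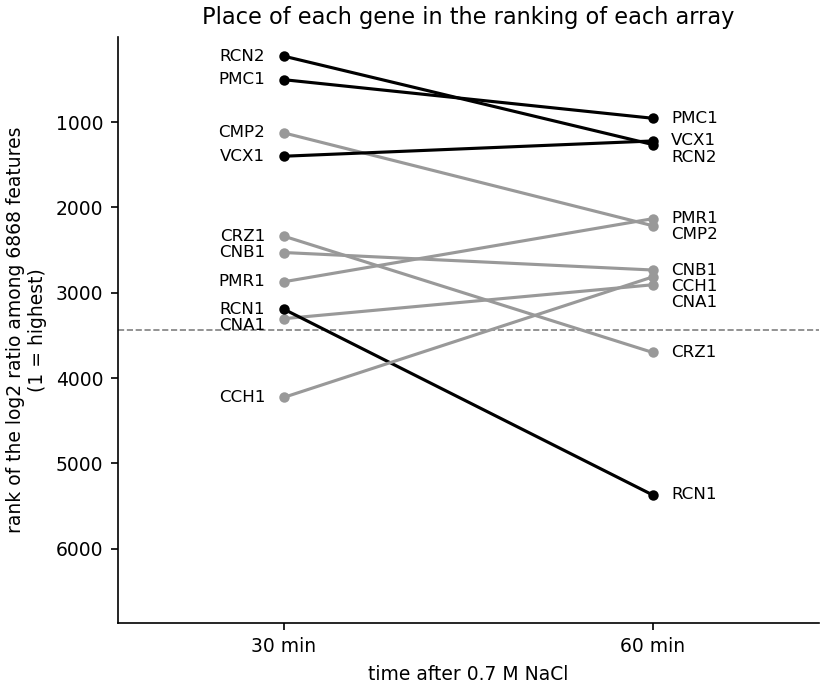
Place of each of the 10 genes when all 6868 features of an array are ranked by log2 ratio (vertical axis, 1 at the top), at 30 min (left) and 60 min (right); the dashed line is the middle of the ranking, and black lines are the genes that the text follows most closely. RCN2 goes from place 228 to 1264 and RCN1 from 3192 to 5370, while VCX1 stays near the same place (1401 and 1222).

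The phosphatase subunit genes differed from one another at 30 min. CMP2, which encodes one catalytic subunit, had a log2 ratio of 0.97 at 30 min, or 1.96-fold, and 0.20 at 60 min, and moved from place 1127 to 2215. CNA1, which encodes the other catalytic subunit, had 0.034 at 30 min and 0.083 at 60 min and stood near the middle of both rankings (places 3304 and 2907). CMP2 thus stood just short of 2-fold, and just past it (1.02) when the array was recentred on features with a gene symbol, while CNA1 was at the centre of the array. The log2 ratio of CMP2 exceeded that of CNA1 by 0.94 at 30 min and by 0.12 at 60 min. CNB1, the gene of the regulatory subunit that binds calcium, had 0.30 at 30 min and 0.11 at 60 min. The subunit genes therefore had unequal ratios at 30 min and closer ones at 60 min as deposited. After rescaling, CMP2 had 0.38, CNA1 0.16 and CNB1 0.21 at 60 min, less alike than as deposited but still closer together than at 30 min. CNA1 and CMP2 are similar in sequence, and the labels do not say how the array kept their signals apart.

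CRZ1, the transcription factor gene, had 0.37 at 30 min and -0.037 at 60 min, and passed from place 2337 to place 3700. Its values lay between the quartiles of the nonzero features at both times.

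The calcineurin regulators RCN1 and RCN2 gave a wider contrast at both times than CMP2 with CNA1 or PMC1 with PMR1. Both encode proteins that bind calcineurin: Rcn1 is the yeast calcipressin, an inhibitor when abundant that can also favour calcineurin activity, and Rcn2 is a related inhibitor. RCN2 had the highest value of the 10 genes at 30 min, 2.55 or 5.87-fold, and 0.45 or 1.37-fold at 60 min. Its place among all features was 228 at 30 min and 1264 at 60 min. It was therefore near the top of the array at the first time and only moderately above the centre at the second, a difference of -2.10 between the times. RCN1 had 0.069 at 30 min and -0.39 at 60 min, the lowest 60 min value of the 10 genes, and passed from place 3192 to 5370. RCN2 exceeded RCN1 by 2.48 at 30 min, or 5.60-fold, and by 0.84 at 60 min. RCN1 is itself a known target of Crz1, and its value was close to 0 at 30 min.

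Of the calcium pumps and the exchanger, PMC1 alone passed 2-fold at 30 min. PMC1, which encodes the vacuolar calcium ATPase and is a Crz1 target, had 1.66 at 30 min, or 3.16-fold, and 0.60 at 60 min, or 1.52-fold. PMC1 was the highest of the 10 genes at 60 min, and its places were 504 and 956. VCX1, which encodes the vacuolar exchanger of protons for calcium, had 0.80 at 30 min and 0.47 at 60 min. VCX1 held nearly the same place at both times (1401 and 1222), unlike RCN2. PMR1, the Golgi pump for calcium and manganese, had 0.18 at 30 min and 0.22 at 60 min. The order PMC1, VCX1, PMR1 held at both times, and PMC1 exceeded PMR1 by 1.48 at 30 min and 0.38 at 60 min.

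CCH1, which encodes the pore-forming subunit of the plasma membrane calcium channel, was the one gene with a negative value at 30 min, -0.26. It had 0.099 at 60 min, and both values lay between the quartiles of the nonzero features. The gene of the entry channel therefore had no large value at either time, as was also the case for PMR1.

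**Figure D3:**
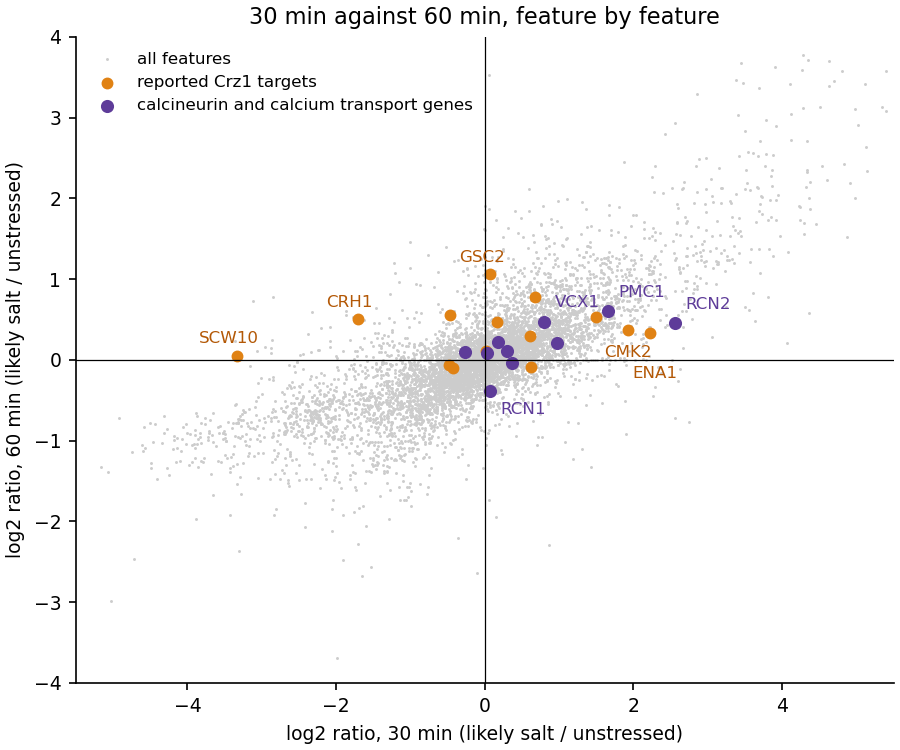
Log2 ratio at 30 min (horizontal axis) against 60 min (vertical axis) for all features (grey), the 10 genes (purple) and 14 reported Crz1 targets (orange); 22 features lie outside the plotted range. RCN2, ENA1 and CMK2 lie far to the right with 60 min values between 0.34 and 0.45, while SCW10 lies far to the left at 30 min with 0.052 at 60 min.

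Genes that act directly with calcineurin were described from a list of 12. At 30 min CMK1, FRT2 and SLM1 were at least 2-fold higher, none was lower, and the list median was 0.014. The 3 of 12 genes compare with 15.8% of all features that passed 2-fold upwards, and 17.3% passed it downwards. At 60 min none passed 2-fold in either direction, when 6.67% of all features were 2-fold higher and 4.32% lower. The calmodulin gene CMD1 had 0.047 and -0.038, so the calcium sensor upstream of calcineurin stood at the centre of both arrays. CMK1, one of the genes of calmodulin-dependent kinase, had 1.70 at 30 min and 0.24 at 60 min. FRT2, which encodes a membrane protein of the endoplasmic reticulum that binds the calcineurin substrate Frt1, had 1.69 and 0.30, against -0.43 and -0.063 for its paralog FRT1. SLM1, which encodes a lipid-binding calcineurin substrate, had 1.67 and 0.46, against -0.40 and -0.34 for its paralog SLM2. In both pairs one copy was over 2-fold higher and the other below 0 at 30 min. The lowest values of the list at 30 min were those of NMD5, the importin that carries Crz1 into the nucleus, with -0.73, and of FPR1, the receptor of the calcineurin inhibitor FK506, with -0.54. MSN5, the exportin that removes Crz1 from the nucleus, had 0.69. The protein kinase genes MCK1 (-0.018) and HRR25 (0.21), whose products phosphorylate Rcn1 and Crz1, stayed near 0 at 30 min.

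Of 6 other genes of calcium channels and transport, GDT1 was the one past 2-fold, lower at 30 min. Among all features 17.3% were 2-fold lower at 30 min, so 1 of 6 is near the general share. GDT1, a Golgi transporter of calcium and manganese, had -1.39 at 30 min and -0.54 at 60 min. MID1, the partner of CCH1 in the plasma membrane channel, had -0.55 at 30 min and -0.027 at 60 min, so both channel genes were below 0 at 30 min and close to it at 60 min. The vacuolar release channel gene YVC1 had 0.43 and 0.046. CSG2, an endoplasmic reticulum protein needed for growth in high calcium, had the highest value of the list, 0.55 at 30 min. The list median was -0.34 at 30 min and 0.0095 at 60 min.

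Genes reported as Crz1 targets had values of both signs at 30 min. Of 14 such genes outside the 10, ENA1, CMK2 and GYP7 passed 2-fold upwards and SCW10 and CRH1 passed it downwards at 30 min, with a median of 0.12. These counts are near the shares over all features, 15.8% upwards and 17.3% downwards. ENA1, the sodium pump gene, had 2.23 at 30 min and 0.34 at 60 min, and its near-identical copies make its value uncertain. CMK2, a calmodulin-dependent kinase gene, had 1.93 and 0.37. GYP7, a GTPase-activating protein of vacuolar traffic, had 1.49 and 0.53. These target genes, like RCN2, had high 30 min values and 60 min values below 2-fold. SCW10, a glucanase-like wall protein, had -3.33 at 30 min and 0.052 at 60 min, and CRH1, a chitin transglycosylase, had -1.71 and 0.50. GSC2, the alternative catalytic subunit of glucan synthase, had 0.074 at 30 min and 1.06 at 60 min. It was the only gene of the list past 2-fold at 60 min as deposited, against 3 on the rescaled array. Over all features 6.67% were 2-fold higher at 60 min as deposited, so 1 of 14 is near the general share. On the rescaled array 1078 of all 6868 features were 2-fold higher. At 60 min 11 of the 14 genes were positive, against 49.4% of all features, and the median was 0.35. With the Crz1 targets among the 10 genes (PMC1, PMR1 and RCN1) added, 4 of 17 were 2-fold higher and 2 lower at 30 min. Targets of Crz1 thus included genes of high, near-zero and low ratio.

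**Figure D4:**
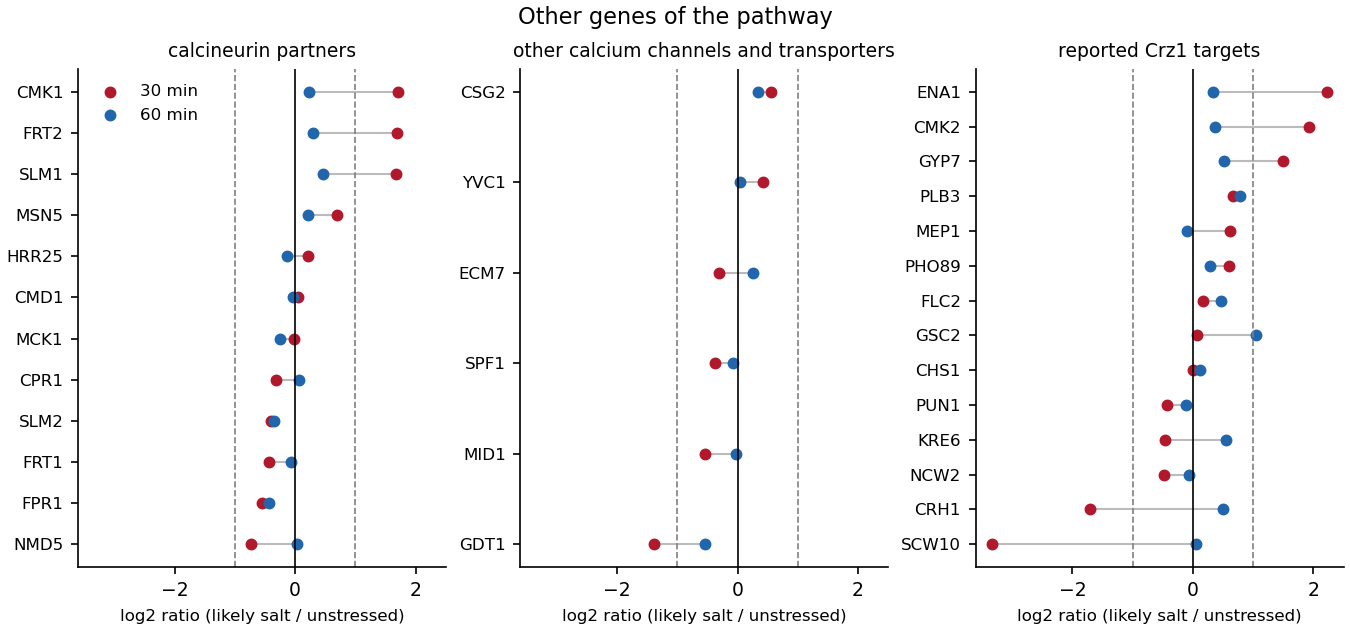
Log2 ratios (horizontal axis) at 30 min (red) and 60 min (blue) of 12 calcineurin partners, 6 other calcium channel and transport genes and 14 reported Crz1 targets, each sorted by its 30 min value; dashed lines mark 2-fold. Most 60 min points lie nearer 0 than the 30 min points, while GSC2 lies past 2-fold at 60 min alone (1.06).

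The features with values most like those of RCN2 over both times were, by straight-line distance, GSY2 (2.55 at 30 min and 0.47 at 60 min, distance 0.015), OPI10 (distance 0.10), BOP2 (0.11), GGA1 (0.14) and GAL7 (0.20). GSY2 encodes the main glycogen synthase and was the closest of all features with a gene symbol. With 1 value per time, likeness over so few points is a description only.

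Genes adjacent to the 10 in the reference gene table were compared with them, since a tiling array covers neighbouring transcripts. Of the 20 adjacent genes, 18 had a value. At 30 min 1 of these was 2-fold higher, 6 were 2-fold lower, and their values ran from -3.33 to 1.12. Over all features 15.8% were higher and 17.3% lower by that size. RCN2 lies between STE13 (0.93), which encodes a dipeptidyl aminopeptidase of the Golgi, and MCT1 (1.12), which encodes a mitochondrial malonyl transferase. All 3 genes of this stretch were thus on the high side at 30 min, with RCN2 the highest, and at 60 min STE13 had 0.20 and MCT1 0.25. PMC1 stood apart from its neighbours, the small reading frame YGL006W-A (0.060) and the Golgi complex gene COG7 (0.23). VCX1 was positive between YDL129W (-1.37) and the cyclin gene PCL2 (-1.25).

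The catalytic genes CNA1 and CMP2 each adjoin one of a pair of paralogous IMP dehydrogenase genes, which make guanine nucleotides. IMD3 beside CNA1 had -1.50 at 30 min and -0.73 at 60 min, and IMD4 beside CMP2 had -3.33 and -1.54. CMP2, with the higher ratio of the phosphatase pair, thus lies beside IMD4, with the lower ratio of the dehydrogenase pair. The gene on the other side of CMP2, SML1, an inhibitor of ribonucleotide reductase, had 0.11 at 30 min. CNA1 also adjoins TSR2, a gene of ribosome assembly, with -2.88, and CNB1 adjoins DPH2, a gene of diphthamide synthesis, with -2.62.

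Some reading frames lie close to a member or share sequence with it. PMR1 overlaps HUR1 in the reference table, and HUR1 had -0.74 at 30 min and -0.45 at 60 min, opposite in sign to PMR1. Reading frames that adjoin members by systematic name and are not listed in the table had larger values than the member in 2 of 3 cases. YML057C-A had 1.98 at 30 min beside CMP2 and YNL028W had 1.42 beside CRZ1, whereas YLR434C had -0.74 beside CNA1. The labels do not say how the array assigned probes where features overlap, and its part in the values of PMR1, CMP2 and CRZ1 was not tested.

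**Figure D5:**
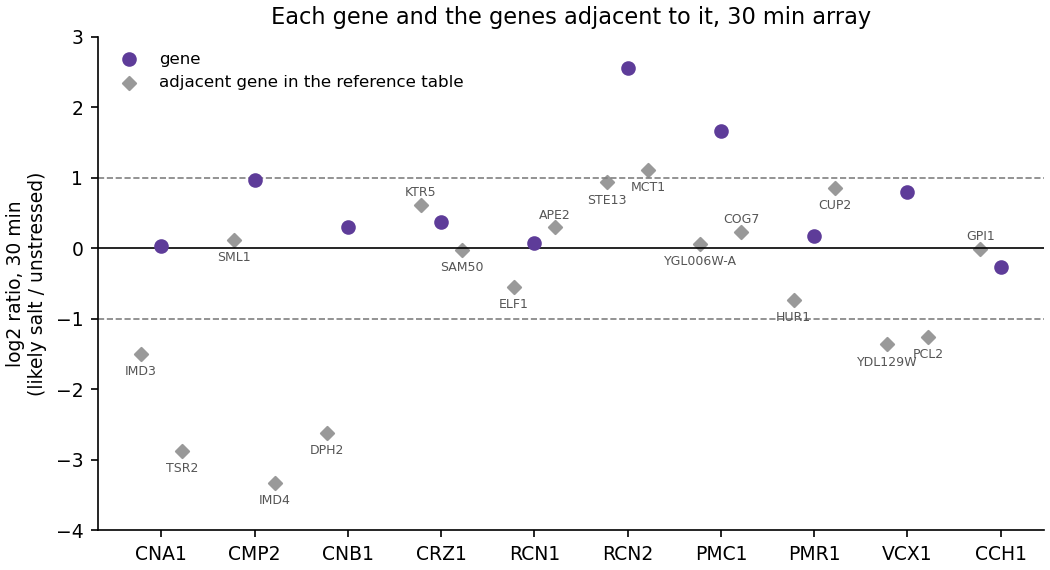
Log2 ratio on the 30 min array (vertical axis) of each of the 10 genes (purple circles) and of the genes adjacent to it in the reference table (grey diamonds, named); dashed lines mark 2-fold. RCN2 is flanked by positive values (0.93 and 1.12), VCX1 and CNA1 by negative ones.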

How the data were processed

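RNA was isolated with hot phenol, and its cDNA was labelled by amino-allyl coupling, per the labels' protocols. The authors deposited 1 log2 ratio per feature and array, and these values were used unchanged. Log base 2 is assumed. Base, direction, background correction, normalization, build and combining of probes: not given in the sources used here. Without the array's build, no coordinates are printed. Features were matched by locus tag to a RefSeq gene table (R64): 5984 of 6868 features matched, as did all 10 members and all 41 genes of the lists.

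The members and lists were chosen with earlier results of these data known. The lists were written from general knowledge of the pathway. The naming rule took every member, list genes past 2-fold or among the 2 highest or 2 lowest at 30 min, the adjacent genes, paralogs and the 5 features nearest to RCN2. List genes named outside it (CMD1, MSN5, MCK1, HRR25, CPR1, ECM7, KRE6, MEP1) were chosen after their values were seen. Of these, CPR1, ECM7, KRE6 and MEP1 were named only because their values had opposite signs at the different times. Features at exactly 0 on an array (104 on either) were left out of medians and quartiles but kept in counts, and no member or list gene was among them. Medians, counts past 2-fold and ranks were computed with pandas 2.3.3 and numpy 2.4.6 in Python 3.11.15, and counting was tested on simulated data. Planned comparisons of promoter motifs and protein sequences were not run, since no sequence was used here. The number of arrays, 1 per time, limits the precision.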

Additional observations from a re-analysis of the deposited data

Results flagged for a closer look

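The 10 genes, the 41 genes of the lists and the 18 adjacent genes with a value were looked at, 69 in all. Of these, 19 had values of opposite sign at 30 and 60 min. These differences rest on 1 array per time and were not tested, and many of the values lie near 0. The share of all features with opposite signs was not counted, so 19 of 69 cannot be called high or low. As the log2 ratio at 60 min minus that at 30 min, the difference among the 10 genes was -0.41 for CRZ1, -0.46 for RCN1 and 0.36 for CCH1. Among the calcineurin partners it was -0.085 for CMD1, 0.38 for CPR1, the cyclophilin that binds cyclosporin, -0.35 for HRR25 and 0.75 for NMD5. For ECM7, a regulator of the Cch1 and Mid1 channel, it was 0.55. Among the reported Crz1 targets it was 2.21 for CRH1, 3.38 for SCW10, 1.02 for KRE6, a gene of wall glucan synthesis, and -0.71 for MEP1, an ammonium permease gene. Among the adjacent genes it was -0.23 for SML1, 0.58 for ELF1, -0.34 for YGL006W-A, -0.30 for COG7, -0.88 for CUP2, 1.60 for PCL2 and 0.17 for GPI1.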

How the results depend on the processing

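No paired analysis was possible because each time has 1 array, and for the same reason no replicate could be left out. At a 1.5-fold threshold, and again with the values read as natural logs, 4 of the 10 genes passed at 30 min (RCN2, PMC1, CMP2 and VCX1) in place of 2. At 60 min 1 gene, PMC1, passed in place of 0 at the 1.5-fold threshold, with its array given the same standard deviation as the 30 min array (1.13) or with it quantile normalised to that array (1.09). Under both of the latter settings 1 gene, RCN2, was 2-fold apart between the times in place of 2, PMC1 having -0.53 and -0.57. At 60 min 1078 of all 6868 features were 2-fold higher on the rescaled array and 1087 on the quantile normalised one. The share of all features was not counted at the 1.5-fold threshold, on natural logs or for the rescaled differences. Those counts therefore show how calls move with the setting and are no result about the 10 genes. The difference of VCX1 between the times turned from -0.34 to 0.077 when rescaled and to 0.11 when quantile normalised. Rescaling took the 60 min median of the 10 genes to 0.30 and that of the Crz1 targets to 0.66. Recentring on the 5267 features with a gene symbol took CMP2 just past 2-fold at 30 min (1.02), so that its call turns on the centring. No member's value at 30 or 60 min turned sign on recentring, or at 60 min on quantile normalisation. The other settings keep every sign by construction, so they could not show such a turn.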
